A study of Mus musculus with 12 samples.

Results

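The fatty acid uptake and oxidation genes described here are 33 mouse genes chosen by symbol, with earlier results of these data known. They cover the path of a fatty acid from release out of circulating fat to its breakdown in mitochondria. All 33 were found among the 27504 genes of the deposited count matrix, and all 33 were among the 16723 genes with enough counts to be tested. Grouped by role, they comprised 6 genes of uptake, binding and storage, 6 of activation and the carnitine shuttle, 9 of the beta-oxidation spiral, 4 of auxiliary enzymes, 3 of electron transfer, and 5 of thioesterases and fuel switches. Since earlier results were known at the choice, shares of the 33 set beside shares of all genes describe the set and do not test it.

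The adult heart takes most of its energy from long-chain fatty acids. Lipoprotein lipase frees them from circulating triglyceride, membrane and cytosolic proteins carry them into the cell, acyl-CoA synthetases trap them as CoA esters, and the carnitine shuttle moves them into the mitochondrial matrix. There the beta-oxidation spiral removes acetyl-CoA units, and the electrons pass through the electron transfer flavoprotein to the respiratory chain. Many genes of the pathway are targets of the nuclear receptor PPARα, and hypertrophied hearts are known for a shift from fatty acids towards glucose.

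The 12 RNA libraries came from hearts of wild type C57BL/6 mice aged 45 postnatal days and fall into 6 groups of 2. AngII hearts came from a hypertrophy model made with angiotensin II, a vasoconstrictor peptide hormone, and sham hearts came from mice with a sham operation. Each arm received, by the gastric route for 7 days, vehicle alone (called menstruum in the labels) or gastrodin, a glucoside with a phenol core from the orchid Gastrodia elata, at daily doses of 5 or 50 mg per kg of body weight (below, 5 mg and 50 mg). The series title names gastrodin, cardiac hypertrophy and insulin-like growth factor 2 as its subjects. Numbers run from 1 to 12: AngII vehicle 1 and 2, AngII 5 mg 3 and 4, AngII 50 mg 5 and 6, sham vehicle 7 and 8, sham 5 mg 9 and 10, and sham 50 mg 11 and 12. Values of a group are given in that order. Nothing in the labels ties the libraries to separate animals, so every p-value rests on a spread between samples that may be technical. The sources used here give neither sex nor the dose and route of angiotensin II.

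Libraries held 63.5 to 78.6 M counts (M is 1e+06), of which genes other than mitochondrial, mitochondria-like and ribosomal RNA genes held 4.49 to 15.2 M. That nuclear share was 13.3 ± 5.28% in AngII and 8.14 ± 1.51% in sham libraries (SD, n = 6 each; exact 2-sided permutation p = 0.0455 over 924 splits), and AngII numbers 1, 3 and 6 had the highest, at 14.0, 20.3 and 18.7%. Sham 50 mg number 12 held 10.8% ribosomal RNA against at most 0.959% elsewhere, and AngII 5 mg number 4 had the lowest nuclear share of the AngII libraries, at 7.49%. Results that rest on either library are therefore also given without it. The 12 cardiomyocyte markers, led by Myh6 and Tnnt2, summed to 4469 to 10914 CPM (counts per 1e+06 counts of the library, after TMM scaling), whereas the 7 skeletal muscle markers found summed to at most 0.907 CPM, with Myh2 and Myh4 at 0. Of fat cell markers, Adipoq was at 0 in every library and Ucp1 was at most 0.0318 CPM, while Fabp4, which endothelium also makes, reached 198 CPM. Some other fat cell markers were present in every library. Cox8b ranged from 65.4 to 204 CPM, Lipe from 5.32 to 9.38, Ppargc1a from 2.28 to 4.94 and Cidea from 0.931 to 2.15 CPM. Retn, Cidec, Plin1, Lep, Cfd, Dio2 and Elovl3 each had a lowest value of 0. The highest value among them was 1.37 CPM, of Dio2.

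RefSeq promoter windows, running from 250 bases before to 50 bases after a transcript start on GRCm38.p6, were at hand for 26 of the 33 genes (30 windows) and are shown for 4 genes called higher in AngII hearts and for Etfa, the partner of Etfb. Lpl, Angptl4, Cpt1b, Crat, Acaa2, Decr1 and Acot13 had no entry. Capitals mark matches, on either strand, to AGGTCA (the core hexamer bound by nuclear receptors such as PPARα), CACGTG (an E-box) or GGGCGG (a GC box). The Slc27a1 window, 1 of 3 for the gene, lies at chr8:71568621-71568920 on the plus strand, the Acsl1 window, 1 of 2, at chr8:46470787-46471086 on the plus strand, and the Ucp3 window at chr7:100472741-100473040 on the plus strand. The windows of the paired subunits lie at chr7:43443822-43444121 on the plus strand for Etfb and at chr9:55512194-55512493 on the minus strand for Etfa.
Slc27a1: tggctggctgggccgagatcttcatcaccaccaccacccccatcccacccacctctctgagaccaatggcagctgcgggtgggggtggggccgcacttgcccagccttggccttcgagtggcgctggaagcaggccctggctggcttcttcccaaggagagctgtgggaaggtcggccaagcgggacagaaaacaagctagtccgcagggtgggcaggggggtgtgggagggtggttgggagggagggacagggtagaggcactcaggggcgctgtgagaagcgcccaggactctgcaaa
Acsl1: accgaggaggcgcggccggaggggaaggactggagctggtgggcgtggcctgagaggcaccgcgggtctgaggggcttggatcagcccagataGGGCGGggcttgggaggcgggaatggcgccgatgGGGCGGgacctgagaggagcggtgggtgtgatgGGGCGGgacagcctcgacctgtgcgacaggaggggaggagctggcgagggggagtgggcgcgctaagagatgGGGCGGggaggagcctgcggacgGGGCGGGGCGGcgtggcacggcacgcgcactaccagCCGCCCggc
Ucp3: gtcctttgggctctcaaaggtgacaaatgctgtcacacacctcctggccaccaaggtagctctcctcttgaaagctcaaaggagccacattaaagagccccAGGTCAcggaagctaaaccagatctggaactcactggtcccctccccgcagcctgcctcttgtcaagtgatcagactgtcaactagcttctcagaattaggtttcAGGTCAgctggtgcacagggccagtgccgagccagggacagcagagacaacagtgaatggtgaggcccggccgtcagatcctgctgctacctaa
Etfb: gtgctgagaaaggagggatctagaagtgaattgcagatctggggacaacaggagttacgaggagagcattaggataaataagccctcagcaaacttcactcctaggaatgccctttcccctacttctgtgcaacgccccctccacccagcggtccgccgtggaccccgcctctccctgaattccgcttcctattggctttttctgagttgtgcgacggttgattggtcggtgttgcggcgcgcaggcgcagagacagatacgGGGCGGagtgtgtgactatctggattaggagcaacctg
Etfa: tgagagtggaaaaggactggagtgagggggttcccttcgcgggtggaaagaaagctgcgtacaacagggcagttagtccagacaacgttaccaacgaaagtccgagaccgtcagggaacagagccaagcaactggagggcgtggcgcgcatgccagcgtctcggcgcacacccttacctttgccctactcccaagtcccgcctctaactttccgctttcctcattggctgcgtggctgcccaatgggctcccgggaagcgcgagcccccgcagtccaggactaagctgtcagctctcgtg
The Ucp3 window held AGGTCA at 2 places and neither other motif. The Acsl1 window held GGGCGG at 7 places, Etfb held it at 1, and Etfa and this Slc27a1 window held none of the 3 motifs. Over all windows of these genes, AGGTCA was found in 8 of 30 (26.7%, against 16.3% of 32851 windows of the same length genome-wide), in Acadm, Acadvl, Cd36, Cpt1a, Echs1, Plin5 and Ucp3. GGGCGG was found in 66.7% of the 30 against 35.7% genome-wide, and CACGTG in 1 window, of Slc27a1 (3.33% against 7.15%). The tandem repeat of AGGTCA with 1 base between (the PPARα type of element) and the longer TCAAGGTCA (the ERRα type), both of which contain AGGTCA, were in none of the 30 windows and in 0.0396% and 0.423% genome-wide.

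Per unit length, Fabp3, the heart fatty acid binding protein that ferries fatty acids through the cytosol, was the most abundant of the 33 in every library. Its median over the 12 libraries was 336 TPM (a transcript level scaled by gene length and library, summing to 1e+06 in a library), followed by Etfb at 61.8 TPM, Lpl at 54.6, Acaa2 at 31.8 and Acadm at 29.3 TPM. Fabp3 supplied 16.5 to 28.2% of the summed CPM of the 33 genes. At the low end stood Cpt1a at a median of 1.80 TPM, Acot2 at 0.975, Angptl4 at 0.535 and Acot1 at 0.373 TPM. Fabp3 was above Etfb, Acadl above Eci1, and Acot2 above Angptl4 in 12 of 12 libraries. Every other neighbouring pair in the order changed places in some libraries, for example Acot13 and Etfa (higher in 5 and 7 of 12), and no neighbouring pair had ranges over the 12 libraries that stayed apart.

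Variation between libraries was uneven. Lpl varied least, by a ratio of highest to lowest CPM of 1.54, and Acot13 and Cd36 by 1.71 and 1.74. Ucp3 varied most, by 57.4, followed by Cpt1b at 16.8, Angptl4 and Slc27a1 at 12.9 each, and Pdk4 at 9.93. Sham vehicle number 7 held the highest level of most genes, and sham 50 mg number 12 or AngII 5 mg number 3 the lowest.

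**Figure D1:**
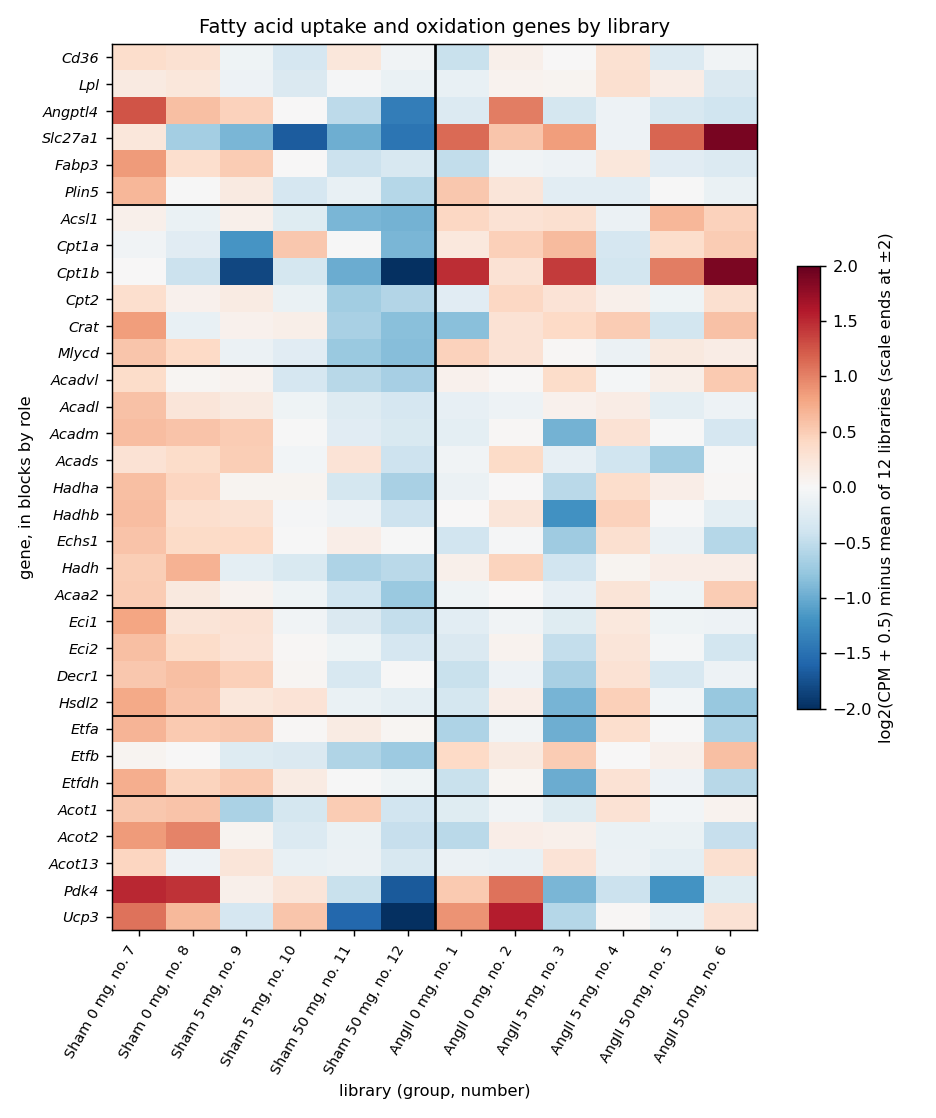
Log2(CPM + 0.5) of each of the 33 genes minus its mean over 12 libraries; columns are libraries, grouped by arm and dose, and rows are genes in blocks by role, with the colour scale ending at ±2. Sham libraries go from above the mean (red) in vehicle to below it (blue) at 50 mg for nearly all genes, while Slc27a1, Cpt1b, Acsl1 and Etfb are above the mean in most AngII libraries.

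AngII against sham, averaged over the 3 doses, asks what the angiotensin II model changed whatever the gastrodin dose. Of the 33 genes, 5 rose: Slc27a1, Cpt1b, Acsl1, Etfb and Ucp3. None fell and 28 did not pass the test. Over all genes tested, 13.4% rose and 7.53% fell, so that 15.2% of the 33 rising is near the background, and 30.3% of them against 36.7% of all genes had an unadjusted p under 0.05. The median log2 fold change was -0.10 for the 33 and 0.10 for all genes, with 15 positive and 18 negative, but it was 0.48 for the 33 and 0.25 for all genes on log2(TPM + 1), where 32 were positive and 1 negative. The split of all calls followed, at 2241 higher and 1260 lower by CPM, 1665 and 25 on log2(TPM + 1), and 1694 and 1753 after each library's trend on GC content was removed. In none of the 33 did the 6 AngII libraries stay apart from the 6 sham libraries, against 7.36% of all genes (4.44% with every AngII library above every sham library and 2.92% with every one below). Since these are whole hearts, fewer cells of a type and less RNA per cell cannot be told apart in any of the results.

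Among the 6 uptake genes, Slc27a1 alone passed the averaged test. It encodes FATP1, a transport protein with acyl-CoA synthetase activity, and lies on chromosome 8 at 71568882 to 71587302. Its level was 20.1 and 10.5 CPM in sham vehicle, 8.82 and 5.05 in sham 5 mg, and 8.48 and 5.88 in sham 50 mg. In AngII hearts it was 38.0 and 25.3 CPM in vehicle, 30.8 and 15.9 at 5 mg, and 39.0 and 65.0 at 50 mg. Only AngII number 4 and sham number 7 overlapped, and all 6 AngII libraries were above the sham median. The averaged log2 fold change was 1.89 ± 0.26 SE (3.70-fold, edgeR adjusted p = 0.00129), and it stayed called with each of 12 libraries left out and under all 13 other settings.

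The other 5 uptake and storage genes did not pass the test, and their log2 fold changes ran from -0.32 to 0.06. Fabp3 stood at 561 and 394 CPM in sham vehicle, 443 and 312 in sham 5 mg, and 229 and 247 in sham 50 mg. In AngII hearts it kept to 221 and 297 CPM in vehicle, 288 and 362 at 5 mg, and 264 and 256 at 50 mg. Both sham vehicle libraries were thus above every AngII library and both sham 50 mg libraries within the AngII range, and the averaged difference was -0.32 ± 0.19 (SE, edgeR adjusted p = 0.229). Cd36, the main fatty acid translocase of the sarcolemma, ranged from 42.6 to 72.0 CPM in AngII and from 45.8 to 74.0 in sham libraries. Lpl ranged from 192 to 295 and from 192 to 274 CPM. Angptl4, a secreted inhibitor of lipoprotein lipase, ranged from 1.28 to 4.25 and from 0.391 to 5.05 CPM, and Plin5, the lipid droplet coat protein of oxidative tissues, from 7.73 to 13.4 and from 5.94 to 14.6 CPM.

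All 6 genes of activation and the carnitine shuttle had a positive averaged change by CPM, with 2 of them called, although Crat and Mlycd turned negative once the GC trend was removed. Cpt1b is the muscle form of carnitine palmitoyltransferase I, the rate-controlling step of mitochondrial entry. It stood at 46.8 and 34.2 CPM in sham vehicle, 12.7 and 36.3 in sham 5 mg, and 23.1 and 10.3 in sham 50 mg. AngII levels were 129.7 and 57.2 CPM in vehicle, 124 and 36.1 at 5 mg, and 94.7 and 173 at 50 mg. AngII number 4 was the one AngII library within the sham range. The log2 fold change was 1.97 ± 0.38 SE (3.92-fold, edgeR adjusted p = 0.00511), with 6 of 6 AngII libraries above the sham median. Cpt1b, on chromosome 15 at 89416405 to 89425863, shares 2744 exon bases with the readthrough gene model Gm44502 on the same strand, so its count is uncertain. With counts of overlapping genes summed, it stayed called.

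Acsl1, the main long-chain acyl-CoA synthetase of heart, lies on chromosome 8 at 46471037 to 46536051. Sham levels were 25.4 and 21.7 CPM in vehicle, 25.3 and 19.9 at 5 mg, and 12.3 and 12.1 at 50 mg. AngII levels were 31.6 and 29.2 CPM in vehicle, 29.7 and 21.8 at 5 mg, and 37.9 and 32.7 at 50 mg. The sham 50 mg pair was the lowest of all groups. Its averaged log2 fold change was 0.70 ± 0.16 SE (1.62-fold, edgeR adjusted p = 0.0108), called with each library left out in turn. Acsl1 shares 1039 exon bases with Gm45244 on the opposite strand, and no source used here gives the strand setting of the counts.

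The 4 genes of this role that did not pass the test were Mlycd, Cpt1a, Cpt2 and Crat. Mlycd encodes malonyl-CoA decarboxylase, which removes the inhibitor of carnitine palmitoyltransferase I. It stood at 16.7 and 14.9 CPM in sham vehicle, 10.3 and 9.44 in sham 5 mg, and 6.47 and 5.98 in sham 50 mg, against 15.6 and 13.8, 11.3 and 10.3, and 12.8 and 12.4 CPM in the matching AngII groups. The arms overlapped in vehicle and were apart at 5 and 50 mg, and the averaged change was 0.35 ± 0.15 (SE, edgeR adjusted p = 0.104). Cpt1a, the liver form of the transferase, was 2.70 and 2.37 CPM in sham vehicle, 0.975 and 4.36 in sham 5 mg, and 2.85 and 1.29 in sham 50 mg. It was 3.38 and 4.18, 4.70 and 2.16, and 3.78 and 4.27 CPM in the AngII groups (0.64 ± 0.34 SE, edgeR adjusted p = 0.195). Its sham 5 mg libraries spanned nearly the whole range of the gene, and without number 10 of that group Cpt1a was called higher, at 1.13 (edgeR adjusted p = 0.0241). Hepatocyte markers, led by Alb and Trf, summed to 3.03 to 57.2 CPM in sham and 3.11 to 77.2 in AngII libraries, and their part in Cpt1a was not tested. The ratio of Cpt1b to Cpt1a in TPM was 4.37 to 9.47 in sham and 7.49 to 22.1 in AngII libraries. Cpt2, which rebuilds acyl-CoA in the matrix, changed by 0.30 ± 0.18 and Crat, carnitine acetyltransferase, by 0.23 ± 0.25 (log2 ± SE), neither past the test.

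**Figure D2:**
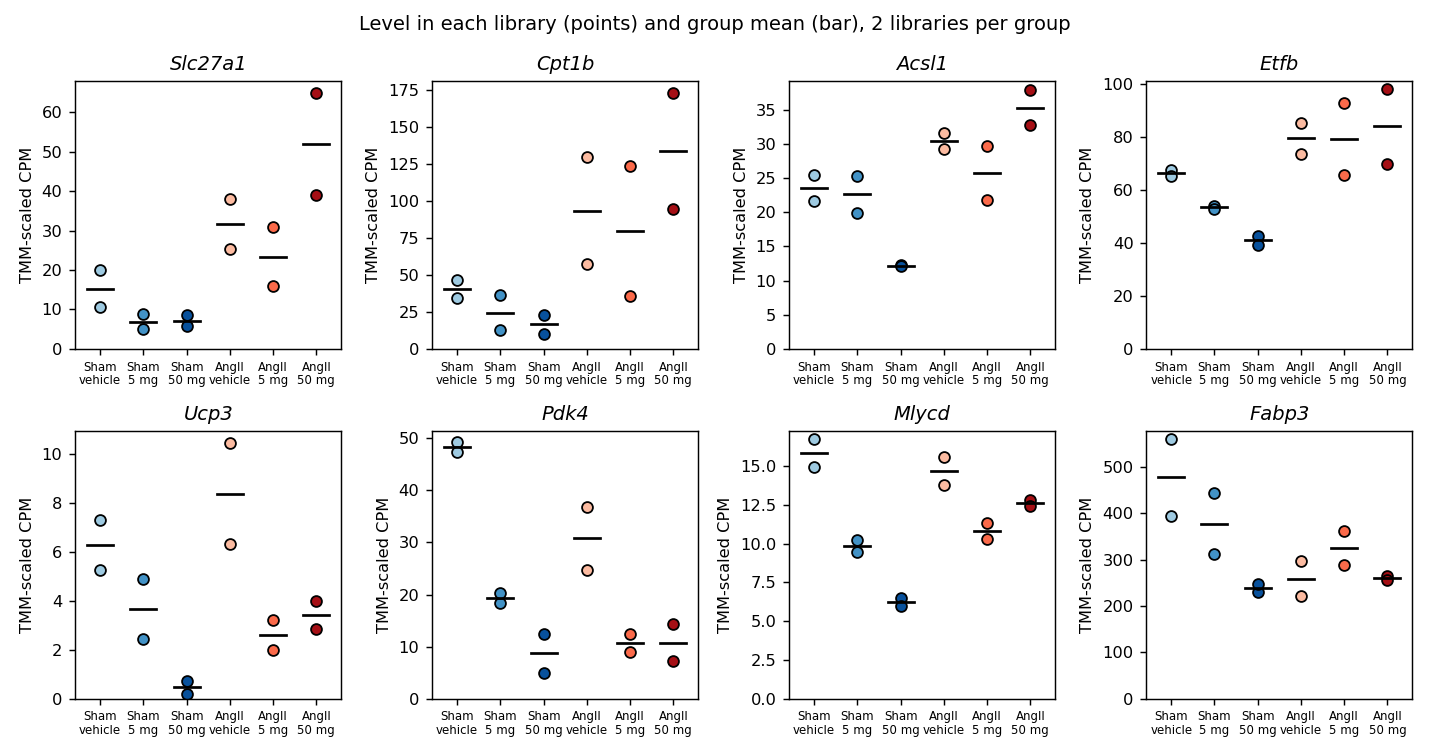
TMM-scaled CPM (vertical axes, linear from 0) of 8 genes in the 6 groups; points are single libraries and bars the mean of 2. For every gene shown except Pdk4, both AngII 50 mg libraries lie above both sham 50 mg libraries, and all 8 genes go down from vehicle to 50 mg in sham.

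None of the 9 genes of the beta-oxidation spiral passed the averaged test, and 6 of the 9 changes were negative by CPM but none on log2(TPM + 1). Acadvl, the very long-chain acyl-CoA dehydrogenase, stood at 73.2 and 58.0 CPM in sham vehicle, 59.3 and 44.6 in sham 5 mg, and 38.2 and 35.4 in sham 50 mg. In AngII hearts it was 59.8 and 57.3 CPM in vehicle, 73.0 and 54.8 at 5 mg, and 61.5 and 81.6 at 50 mg. The arms overlapped in vehicle, and the averaged change was 0.36 ± 0.17 (SE, edgeR adjusted p = 0.136). Acadvl shares 1151 exon bases with Dvl2 on the opposite strand. Echs1, the short-chain enoyl-CoA hydratase of the second step, was lower in most AngII libraries. It stood at 37.1 and 32.6, 32.96 and 24.5, and 27.2 and 24.6 CPM in sham vehicle, 5 mg and 50 mg, and at 18.9 and 24.4, 14.998 and 30.9, and 22.9 and 16.4 CPM in the matching AngII groups (-0.47 ± 0.20 SE, edgeR adjusted p = 0.114). AngII number 4 was the only AngII library above the sham median. On log2(TPM + 1) the change of Echs1 was 0.10, against a median of 0.25 over all genes. Its sign thus depended on the scale, while it stayed below the median of all genes on both.

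The remaining 7 changes of the spiral ran from -0.35 for Acadm to 0.17 for Hadh on the log2 scale. Acadl, Acadm and Acads encode the long-, medium- and short-chain acyl-CoA dehydrogenases. Their AngII ranges were 47.3 to 59.8, 33.1 to 77.9 and 6.21 to 13.7 CPM, against sham ranges of 42.9 to 81.6, 51.9 to 98.3 and 7.64 to 14.8 CPM. All 3 overlapped widely between arms. Hadha and Hadhb encode the subunits of the mitochondrial trifunctional protein and start 85 bases apart on opposite strands of chromosome 5. Hadha ranged from 45.7 to 84.8 CPM in AngII and from 42.1 to 101 in sham libraries, and Hadhb from 16.0 to 52.0 and from 28.4 to 58.1 CPM. Their ratio in TPM lay between 0.745 and 1.04 in every library except AngII number 3, where it was 1.44. Acaa2, the thiolase that ends the spiral, ranged from 47.1 to 75.0 CPM in AngII and from 31.3 to 75.4 in sham libraries.

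The 4 auxiliary genes all had negative averaged changes by CPM, from -0.45 to -0.18 on the log2 scale, and positive ones on log2(TPM + 1), and none passed the test. Decr1, the 2,4-dienoyl-CoA reductase needed for unsaturated fatty acids, stood at 35.2 and 36.6 CPM in sham vehicle, 33.5 and 24.8 in sham 5 mg, and 19.3 and 23.9 in sham 50 mg. AngII levels were 17.5 and 22.3, 15.2 and 29.6, and 19.2 and 22.3 CPM (-0.43 ± 0.19 SE, edgeR adjusted p = 0.127). Sham 50 mg thus lay in the AngII range while sham vehicle lay above it. On log2(TPM + 1) the change of Decr1 was 0.13, against a median of 0.25 over all genes. Eci1 and Eci2, the enoyl-CoA isomerases, and Hsdl2, a hydroxysteroid dehydrogenase-like protein, had AngII ranges of 21.7 to 29.8, 7.43 to 12.6 and 4.46 to 12.7 CPM against sham ranges of 18.3 to 44.9, 8.21 to 16.3 and 7.75 to 15.6 CPM.

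The 3 electron transfer genes split. Etfa and Etfb encode the 2 subunits of the electron transfer flavoprotein, and Etfdh the dehydrogenase that passes its electrons to ubiquinone. Etfb stood at 67.4 and 65.4 CPM in sham vehicle, 53.9 and 52.9 in sham 5 mg, and 42.7 and 39.2 in sham 50 mg, with both libraries of each group close together. AngII levels were 85.3 and 73.6, 92.8 and 65.6, and 69.8 and 98.2 CPM. Etfb rose by a log2 fold change of 0.62 ± 0.17 SE (1.54-fold, edgeR adjusted p = 0.0213), with 6 of 6 AngII libraries above the sham median. The call was kept in 6 of 12 fits with 1 library left out and was lost without number 1, 6, 7, 8, 9 or 12 (adjusted p up to 0.0719). Etfb shares 617 exon bases with Gm45233, which held 8 counts in all.

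Etfa had a lower mean in AngII hearts and did not pass edgeR's test. It stood at 63.1 and 56.0, 56.8 and 39.7, and 43.9 and 40.0 CPM in sham vehicle, 5 mg and 50 mg, and at 25.4 and 37.0, 19.5 and 49.6, and 38.8 and 25.0 CPM in the matching AngII groups (-0.60 ± 0.24 SE, edgeR adjusted p = 0.0837). None of 6 AngII libraries was above the sham median. Etfa was called lower by DESeq2's Wald test and limma-voom (adjusted p = 0.0443 and 0.0412) and with no filter, while its change was -0.06 on log2(TPM + 1) and -0.17 with the nuclear share as covariate. Etfdh followed the same order, at 40.2 and 33.2, 35.1 and 27.3, and 24.1 and 22.8 CPM in sham and 17.6 and 24.8, 11.954 and 29.8, and 22.6 and 16.3 CPM in AngII hearts (-0.55 ± 0.22 SE, edgeR adjusted p = 0.0974). The change of Etfdh was near 0 on log2(TPM + 1), where the median of all genes was 0.25. The ratio of Etfb to Etfa in TPM was 1.48 to 2.08 in sham libraries and 2.06 to 7.41 in AngII libraries, with medians of 1.60 and 4.17. AngII numbers 1, 3 and 6, which had the highest nuclear shares, had ratios of 5.24, 7.41 and 6.13, while numbers 2, 4 and 5 had 3.10, 2.06 and 2.80.

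Without AngII number 4, which is the AngII library with the highest Etfa, Etfdh, Echs1 and Decr1, 11 of the 33 genes were called: Slc27a1, Cpt1b, Acsl1 and Etfb higher, and Acadm, Decr1, Echs1, Etfa, Etfdh, Hadhb and Hsdl2 lower. In that fit 15.9% of all genes were called higher and 12.4% lower. Without numbers 4 and 12 together 12 were called, the same with Pdk4 lower, where 24.3% of all genes were called in either direction. Without number 12 alone 3 were called, where 12.5% of all genes were. In fits without number 1, 6, 7, 8 or 9 the count was also 3, namely Slc27a1, Cpt1b and Acsl1 in all 6 of these fits.

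Among thioesterases and fuel switches, Ucp3, a mitochondrial carrier that rises with fatty acid supply, was called higher at the averaged level (0.95 ± 0.31 SE, 1.93-fold, edgeR adjusted p = 0.0487). It stood at 7.31 and 5.26 CPM in sham vehicle, 2.41 and 4.90 in sham 5 mg, and 0.736 and 0.182 in sham 50 mg, where the raw counts were 40 and 13. AngII levels were 6.32 and 10.4, 1.98 and 3.22, and 2.83 and 3.995 CPM. Only 3 of 6 AngII libraries were above the sham median, and the arms were apart only at 50 mg. The call was kept in 4 of 12 fits with 1 library left out (log2 fold change 0.71 to 1.38) and lost without number 1, 2, 4, 6, 7, 8, 9 or 12. Pdk4, the kinase that shuts pyruvate dehydrogenase, and the thioesterases Acot1, Acot2 and Acot13, which free fatty acids from CoA, did not pass, with log2 changes of -0.40, -0.11, -0.38 and 0.00. Acot1 and Acot2 are near copies that share 20.4 and 24.2% of their 31-base words, so reads may be split between them.

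**Figure D3:**
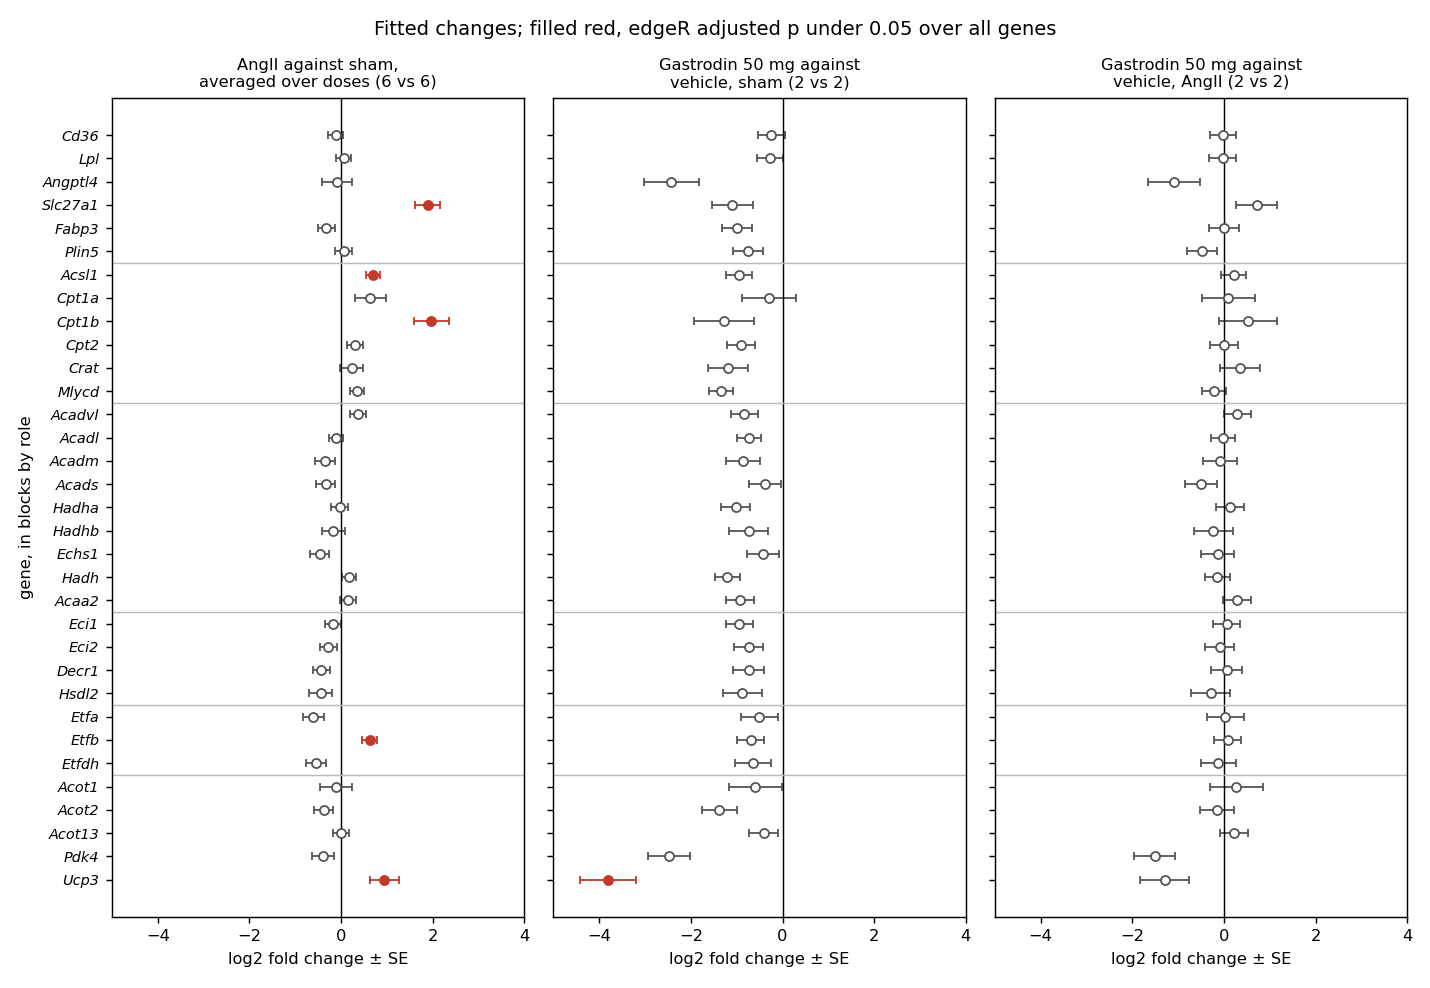
Fitted log2 fold change ± SE of each gene (rows) for AngII against sham averaged over doses (6 against 6 libraries) and for gastrodin 50 mg against vehicle in sham and in AngII hearts (2 against 2 each); filled red points have an edgeR adjusted p under 0.05 over all genes. All 33 points of the middle panel lie below 0, and in the right panel they lie on both sides of it.

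Other measures moved with the averaged changes. Over the 33 genes the log2 fold change rose with the GC content of the longest transcript (Pearson r = 0.41, Spearman rho = 0.46 across 33 genes, which share the same libraries, against 0.11 and 0.18 across 16707 genes). Etfb and Slc27a1 have 57.1 and 56.9% GC, and Etfdh and Etfa 43.8 and 45.0%. After the GC trend of each library was removed, Slc27a1, Cpt1b and Acsl1 were called higher and Acads lower. Over the 6 AngII libraries, which share that arm, Spearman's rho with the nuclear share was 0.89 for Etfb and Acadvl and 0.83 for Cpt1b, and -1 for Acadm, Echs1, Eci2, Hsdl2 and Etfdh. Over the 6 sham libraries it lay between -0.43 and 0.49 for all 33. With the nuclear share as a covariate Slc27a1 alone stayed called, where calls over all genes went from 20.9% to 2.88%. In that fit the log2 changes were 1.53 for Slc27a1, 1.19 for Cpt1b, 0.64 for Acsl1, 0.40 for Etfb and 1.14 for Ucp3. The part of GC content and of the nuclear share in these results was otherwise not tested.

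**Figure D4:**
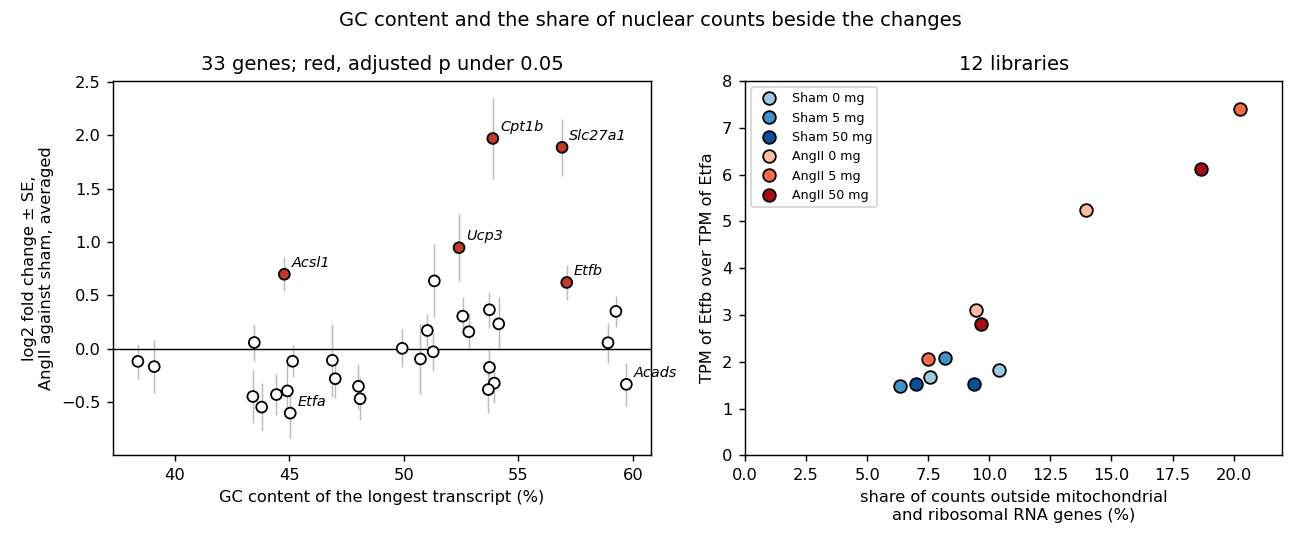
Left, log2 fold change ± SE of AngII against sham, averaged, against GC percent of the longest transcript for the 33 genes, with called genes in red; right, the TPM ratio of Etfb to Etfa against the share of counts outside mitochondrial and ribosomal RNA genes for 12 libraries. The 3 AngII libraries with the highest shares have ratios of 5.24 to 7.41, and the sham libraries stay between 1.48 and 2.08.

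In vehicle alone, AngII against sham hearts gave no call among the 33, against 0.0598% of all genes (0.0478% higher and 0.012% lower), and 6 of the 33 (18.2%, against 16.5% of all genes) had an unadjusted p under 0.05. DESeq2's Wald test called Acot2 and Fabp3 lower, where it called 0.7% of all genes lower. The changes were negative for 26 genes and positive for 7, with a median of -0.48 against 0.06 over all genes, but the median was -0.02 on log2(TPM + 1), where all genes had 0.18. Acot2, the matrix thioesterase, stood at 1.64 and 2.90 CPM in AngII against 5.09 and 5.67 in sham vehicle (-1.25 ± 0.38 SE, edgeR adjusted p = 0.172), and Fabp3 changed by -0.88 ± 0.33 (adjusted p = 0.233). Both genes had both AngII libraries below both sham libraries, as did 24.3% of all genes, while 29.3% had both above. The arms did not overlap in 25 of the 33 genes, 5 of them higher in AngII. Slc27a1 and Cpt1b were among the 7 positive genes, at 1.05 and 1.21 on the log2 scale.

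At 5 mg there was no call among the 33 or among all genes (0.0%), with 2 of the 33 and 2004 of all genes at an unadjusted p under 0.05. The 2 were Slc27a1, at 1.76 ± 0.46 (SE, edgeR adjusted p = 0.255), and Cpt1b, at 1.70 ± 0.65 (adjusted p = 0.347). DESeq2's Wald test called Slc27a1 higher, as it did 1.23% of all genes. Without AngII number 4, edgeR called 5 of the 33, with Slc27a1 and Cpt1b higher and Acadm, Etfdh and Hadhb lower, where 4.21% of all genes were higher and 2.31% lower.

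At 50 mg, 5 of the 33 genes were called higher in AngII than in sham hearts and none lower, where 4.04% of all genes were higher and 1.38% lower (5.42% in either direction). They were Slc27a1, Acsl1, Ucp3, Cpt1b and Mlycd, 3 of them in activation and the carnitine shuttle. Slc27a1 was higher by 2.86 ± 0.47 (log2 ± SE, edgeR adjusted p = 0.00835), with 52.0 ± 18.4 against 7.18 ± 1.84 CPM (SD, n = 2 each). Acsl1 was higher by 1.53 ± 0.28 (adjusted p = 0.0126), at 35.3 ± 3.66 against 12.2 ± 0.12 CPM. Ucp3, Cpt1b and Mlycd were higher by 2.93 ± 0.59, 3.002 ± 0.68 and 1.02 ± 0.26 (adjusted p = 0.0184, 0.0275 and 0.0388). For Ucp3 and Mlycd the AngII 50 mg means, 3.41 and 12.6 CPM, were below those of AngII vehicle (8.37 and 14.7 CPM) and sham vehicle (6.29 and 15.8 CPM). Their sham 50 mg means were 0.459 and 6.23 CPM, the lowest of the 6 groups. In all 5 both AngII libraries were above both sham libraries, as in 18 of the 33 genes, where 30.6% of all genes were. The median change was 0.30 against 0.03 over all genes, and 24 of 33 were positive. In the same comparison 4 of 12 cardiomyocyte markers and 5 of 6 red cell markers rose (list medians 0.89 and 2.46), 5 of 8 fibroblast markers fell (-1.76), and the 8 macrophage markers had a median of -1.49 with none called. The part of these markers in the changes of the 33 genes was not tested.

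Without sham number 12 none of the 33 was called, and without sham number 11 or AngII number 6 the count was 2. Calls over all genes went the same way, from 5.42% to 0.276% without number 12, 1.11% without number 11 and 1.02% without number 6. With 1 library left out, the log2 changes stayed at 2.48 to 3.19 for Slc27a1, 1.43 to 1.67 for Acsl1, 0.97 to 1.08 for Mlycd, 2.54 to 3.71 for Cpt1b and 2.22 to 4.23 for Ucp3. Over the fits with 1 library left out, Slc27a1 was called in 11 of 12, Acsl1 and Ucp3 in 10, Cpt1b in 9 and Mlycd in 3. On log2(TPM + 1) with limma none was called, and on log2(TPM + 0.1) 2 were. The next genes in order were Etfb at 1.04 ± 0.29 (edgeR adjusted p = 0.0564) and Acadvl at 0.96 ± 0.29 (adjusted p = 0.0748).

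Gastrodin 50 mg against vehicle in sham hearts asks what the compound did without the model. All 33 changes were negative, with a median of -0.86 against 0.00 over all genes, and the median was -0.66 on log2(TPM + 1). Of the 33, 21 had an unadjusted p under 0.05 (63.6%, against 9.22% of all genes). The genes were chosen with earlier results of these data known, so this share does not test the set. Ucp3 alone passed the adjusted test, where 0.0658% of all genes fell. In 32 of the 33, all but Cpt1a, both 50 mg libraries were below both vehicle libraries, as in 20.7% of all genes. Ucp3 fell by 3.803 ± 0.61 on the log2 scale (edgeR adjusted p = 0.0289), from 6.29 ± 1.45 to 0.459 ± 0.392 CPM (SD, n = 2 each). Its call was lost without sham number 7 or 12, under limma-voom and on either TPM scale. Pdk4 was called as well without number 1, 2, 3, 4, 5, 6 or 11, Mlycd was without number 3 or 4, and DESeq2's Wald test called 9 of the 33 lower, where it called 0.807% of all genes lower.

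Pdk4 came next. It stood at 49.3 and 47.5 CPM in sham vehicle, 18.3 and 20.3 in sham 5 mg, and 12.4 and 4.96 in sham 50 mg, a change at 50 mg of -2.48 ± 0.45 (log2 ± SE, edgeR adjusted p = 0.0632). In AngII hearts it was 24.8 and 36.8 CPM in vehicle, 8.86 and 12.5 at 5 mg, and 7.16 and 14.4 at 50 mg. The 3 dose groups did not overlap in sham, and in AngII both dosed groups lay below vehicle. Mlycd changed by -1.35 ± 0.26 (adjusted p = 0.0761) and Angptl4 by -2.43 ± 0.60 (adjusted p = 0.221). Pdk4, Angptl4 and Ucp3 are all textbook targets of PPARα, as are many genes of the pathway, and the part of PPARα in these changes was not tested.

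By role, the median change in sham at 50 mg was -0.87 for uptake, binding and storage, -1.07 for activation and the carnitine shuttle, -0.83 for the spiral, -0.81 for auxiliary enzymes, -0.64 for electron transfer, and -1.38 for thioesterases and fuel switches. Cd36 and Lpl changed least among uptake genes, by -0.25 and -0.28. Hadh, the hydroxyacyl-CoA dehydrogenase of the spiral, changed by -1.20 ± 0.28 (SE, edgeR adjusted p = 0.172), and its levels were 30.3 and 35.1 CPM in vehicle, 18.8 and 17.4 at 5 mg, and 13.8 and 14.6 at 50 mg. AngII levels of Hadh were 23.1 and 29.4, 16.5 and 22.2, and 23.5 and 23.8 CPM. The sham levels separated by dose, while the AngII levels did not, but the interaction of Hadh was not called at either dose. Both sham 50 mg libraries lay below both vehicle libraries in 20.7% of all genes.

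At 5 mg in sham hearts 32 of 33 changes were negative, all but that of Cpt1a, with a median of -0.37 against 0.00 over all genes. None was called, against 0.0179% of all genes, and 6 had an unadjusted p under 0.05 (18.2%, against 4.12%). Hadh changed by -0.85 ± 0.27 and Acot2 by -1.16 ± 0.38 (log2 ± SE, edgeR adjusted p = 1 for both). Both comparisons use the same sham vehicle libraries, whose number 7 was the highest for most of the 33. Without number 7 the median at 50 mg was -0.66, and without number 12 it was -0.81. The 4 dosed sham libraries were below both vehicle libraries in 19 genes (7.32% of all genes), among them Cd36, Lpl, Hadha, Hadhb and Etfb.

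The summed level of the 33 genes followed the same order. It was 2047 and 1701 CPM in sham vehicle, 1568 and 1283 in sham 5 mg, and 1143 and 1048 in sham 50 mg, and 1338 to 1604 CPM over the AngII libraries. The cardiomyocyte marker sum was 8523 and 6796, 6973 and 5933, and 5358 and 4469 CPM in the same sham groups, and 6556 to 10914 CPM in AngII libraries. The ratio of the sums stayed between 0.213 and 0.250 in all 6 sham libraries, whereas it spread from 0.139 to 0.245 in AngII libraries. All 12 cardiomyocyte markers were tested and none was called at 50 mg in sham hearts, with a median of -0.70.

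**Figure D5:**
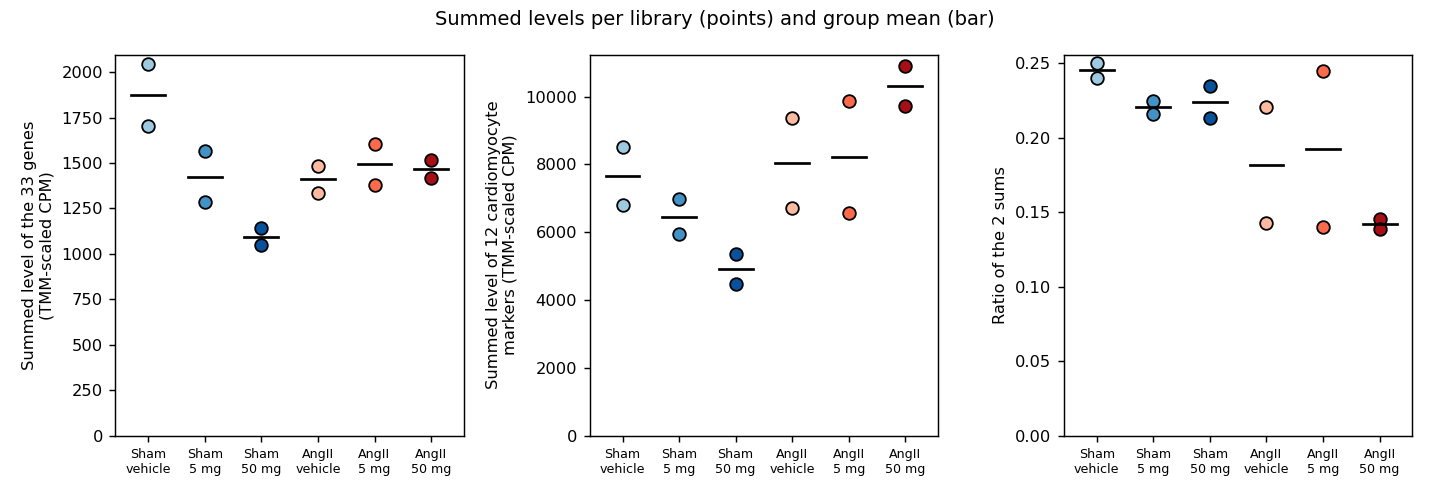
Summed CPM of the 33 genes (left), summed CPM of 12 cardiomyocyte markers (middle) and their ratio (right) by group; points are libraries and bars the mean of 2, with axes from 0. In sham both sums go down with dose while the ratio stays at 0.213 to 0.250.

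Markers of other cells also differed between vehicle and 50 mg in sham hearts. Fibroblast markers (8, led by Gsn and Dcn) summed to 180 and 347 CPM in vehicle and 635 and 651 at 50 mg, and macrophage markers (8, led by Lyz2 and C1qa) to 34.2 and 72.4 and to 142 and 113 CPM, with medians of 1.16 and 1.30 on the log2 scale. Red cell markers, led by Hba-a1 and Hba-a2, summed to 1742 and 1310.03 CPM in vehicle and to 290 and 608 CPM at 50 mg. Hepatocyte markers summed to 3.03 and 4.27 CPM in vehicle and 41.9 and 48.9 at 50 mg. None of these markers was called at 50 mg against vehicle, and their part in the levels of the 33 genes was not tested. In sham 5 mg the sums were 203 and 307 CPM for fibroblast, 67.0 and 75.6 for macrophage, 761 and 362 for red cell, and 3.90 and 57.2 for hepatocyte markers. Fibroblast sums at 5 mg thus lay within the vehicle range, and the 2 hepatocyte sums lay on either side of the 50 mg pair. Over the averaged AngII comparison, 6 of 10 endothelial markers (led by Egfl7 and Tie1) and 5 of 9 smooth muscle and pericyte markers (led by Acta2 and Rgs5) rose, 5 of 8 fibroblast and 3 of 8 macrophage markers fell, and 5 of 12 cardiomyocyte markers rose and 1 fell. Of red cell markers 5 of 6 rose, with a median of 1.40, and of hepatocyte markers 1 of 8 did. No marker of white fat, brown fat or skeletal muscle was called in it, but only 4 of 8, 4 of 6 and 4 of 7 of them were tested. Of lung markers, Scgb1a1 and Scgb3a1 were tested and rose, and their sum was at most 11.4 CPM.

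In AngII hearts gastrodin gave no call among the 33 at either dose, against 0.00598% of all genes at 5 mg and 0.012% at 50 mg, and 2 of the 33 had an unadjusted p under 0.05 at each dose (1.74% and 1.88% of all genes). They were Pdk4 and Ucp3 both times. Pdk4 changed by -1.53 ± 0.44 at 5 mg and -1.51 ± 0.44 at 50 mg, and Ucp3 by -1.69 ± 0.54 and -1.29 ± 0.53 (log2 ± SE, edgeR adjusted p = 1 for all 4). Both doses are set against the same 2 AngII vehicle libraries. The median changes were 0.03 and -0.01 against 0.01 and 0.00 over all genes. Plin5, Mlycd, Pdk4 and Ucp3 were the 4 genes with all 4 dosed AngII libraries below both vehicle libraries, where 4.2% of all genes were.

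The test of whether gastrodin acted differently in the arms is the interaction. At 50 mg, 32 of the 33 interactions were positive, Acads being the exception, with a median of 0.87 against -0.03 over all genes, and 12 had an unadjusted p under 0.05 (36.4%, against 6.93%). None was called, where 0.0299% of all genes were (0.00598% higher and 0.0239% lower). The smallest p-values belonged to Ucp3 (2.51 ± 0.78 SE, edgeR adjusted p = 0.542) and Mlycd (1.13 ± 0.36, adjusted p = 0.581). At 5 mg none was called either (0.00598% of all genes) and 2 had an unadjusted p under 0.05 (3.07% of all genes). Of the 33, 26 were positive with a median of 0.41, and the smallest p-values belonged to Acot2 (1.36 ± 0.53) and Acot1 (1.98 ± 0.84), both with an adjusted p of 1. Acot1 stood at 1.47 and 1.51 CPM in sham vehicle, 0.377 and 0.563 in sham 5 mg, and 1.43 and 0.545 in sham 50 mg, against 0.644 and 0.784, 0.652 and 1.15, and 0.802 and 0.921 CPM in the AngII groups, near the lowest levels of the 33.

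Levels of the 33 genes were also correlated with each other across the 12 libraries, which share arms and doses, and no grouping of them was tested. The nearest gene to Etfa by Pearson correlation of log2 CPM was Echs1 (0.99), followed by Etfdh (0.98), while the nearest to Etfb was Cpt1b (0.91), followed by Acadvl (0.89). Slc27a1 was nearest to Cpt1b (0.89), Fabp3 and Acadl to Eci1 (0.93 and 0.94), and Ucp3 to Mlycd (0.88). Angptl4 and Pdk4 were nearest to each other (0.88). The lowest value was between Etfa and Cpt1b (-0.70).

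Of the wider fatty acid pathway, genes of transport and activation outside the 33 gave 3 of 12 tested higher in AngII hearts (averaged, none lower), led by the lipoprotein receptor gene Vldlr at 1.44 ± 0.17 and Gpihbp1, which anchors lipoprotein lipase to endothelium, at 1.02 ± 0.30 (log2 ± SE, edgeR adjusted p = 0.00077 and 0.0304). Of other mitochondrial acyl-CoA enzymes 3 of 17 rose, led by the acyl-CoA dehydrogenase Acad10 (2.18 ± 0.34) and the thioesterase Acot11 (1.37 ± 0.25), and of peroxisomal genes 3 of 14, led by the oxidase Acox3 (1.13 ± 0.19) and the transporter Abcd3 (1.01 ± 0.25). In triglyceride turnover 2 of 15 rose and 3 fell, and the smallest p-values belonged to the synthesis genes Dgat2 (1.32 ± 0.21) and Dgat1 (1.32 ± 0.32). None of 5 ketone body genes was called, Slc16a1 having the smallest p (-0.20 ± 0.18). These shares are to be read against 13.4% of all genes rising and 7.53% falling.

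Of 20 regulators, 4 rose and none fell. Acacb, which makes the malonyl-CoA that holds back carnitine palmitoyltransferase I, rose by 1.95 ± 0.26 (53.6 ± 14.9 against 17.3 ± 11.5 CPM, SD, n = 6 each, edgeR adjusted p = 0.00118), and the coactivator gene Ppargc1b by 1.16 ± 0.29 (adjusted p = 0.0151). Esrra, the nuclear receptor ERRα, rose by 0.83 ± 0.21 (adjusted p = 0.0152). The receptor gene Ppara was at 0.928 ± 0.307 against 0.661 ± 0.275 CPM (0.49 ± 0.37, adjusted p = 0.355), Esrrg changed by -0.28 ± 0.24 and the coactivator Ppargc1a by -0.03 ± 0.22, and none of these 3 passed. At 50 mg in sham hearts Acacb changed by -2.56 ± 0.47 (adjusted p = 0.0632) and no regulator was called.

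Among other fuels, 3 of 19 glycolysis entries (18 symbols, of which 1 occurs more than once in the matrix) rose (averaged), led by hexokinase 2, Hk2 (1.06 ± 0.21), and the insulin-responsive glucose transporter Slc2a4 (0.82 ± 0.18), and 1 of 14 citric acid cycle genes, Ogdh (0.68 ± 0.19). In pyruvate oxidation 1 of 12 fell, the kinase Pdk1 (-0.60 ± 0.20, edgeR adjusted p = 0.0474). Of 10 synthesis genes, Srebf1, a lipogenic transcription factor, rose (1.92 ± 0.32) and the desaturase Scd1 fell (-1.08 ± 0.27). Of 45 nuclear-encoded respiratory chain genes 2 rose and 1 fell, with Uqcrc1 (0.88 ± 0.24) and Cox5a (-0.60 ± 0.17) having the smallest p. At 50 mg in sham hearts the medians were -0.62 for the citric acid cycle, -0.49 for the respiratory chain, -0.47 for pyruvate oxidation, -0.46 for glycolysis and -0.41 for peroxisomal oxidation, against -0.86 for the 33 genes. Of these 5 lists no gene was called in that comparison, and the only call of the related lists there was the acyl-CoA dehydrogenase Acad12 (-2.05 ± 0.35, adjusted p = 0.0404).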

How the data were processed

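Frozen hearts gave RNA (RNeasy Plus Mini kit) for paired-end TruSeq libraries, per the labels' protocols. HISAT2 2.2.1, StringTie 2.1.3 and the mouse genome GRCm38.p6 are named in the submitters' processing notes. No source used here gives the counter, the annotation release, the strand setting or how multiply mapped reads were treated. Values in the authors' matrix are unnormalized counts per gene, and the deposited tables per sample hold TPM, per the file headers. Gene positions and GC content came from GENCODE M21 on GRCm38.

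In R 4.3.3, edgeR 4.0.16 fitted 1 mean per group over 12 libraries to counts kept by filterByExpr (16723 of 27504 genes) and scaled by TMM (6 residual degrees of freedom, common dispersion 0.227). Contrasts used the 2-sided quasi-likelihood F-test with Benjamini-Hochberg adjustment over all genes and a threshold of 0.05. A standard error is the log2 fold change over the root of F, and CPM use TMM-adjusted library sizes. The nuclear share is the percentage of counts outside mitochondrial genes, genes with at least 50% of 31-base words shared with the mitochondrial genome, and ribosomal RNA genes.

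Values in every library are given for genes called in the averaged contrast, filled up to 12 by smallest p, for genes called in other contrasts, and for the 2 of smallest p in each other contrast. Of each related list, up to 2 called genes of smallest p are named (or the smallest p where none was called), with Ppara, Ppargc1a, Esrra and Esrrg. Of each marker list except skeletal muscle the 2 most abundant are named. Acad12, all other fat cell markers, the markers Myh2 and Myh4, and the genes of the correlation, ranges and sequence paragraphs are named besides. The members and lists were chosen with earlier results of these data known. Alternatives were DESeq2 1.42.0 (size factors and Wald test), limma 3.58.1 (voom, and trend on log2(TPM + 1) or log2(TPM + 0.1)), other filters, left-out genes, the nuclear share as covariate, GC trend removal, overlapping genes summed and left-out libraries. Library sizes from nuclear counts without TMM were added after seeing the data. The fit was tested on simulated data.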

Additional observations from a re-analysis of the deposited data

Results flagged for a closer look

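Within each arm of 6 libraries, 66 sets of CPM values (33 genes in 2 arms) were screened for a highest or lowest value standing apart by Dixon's gap test at the 95% level. Of them 3 were singled out, where chance alone singles out about 1 in 20 if the 6 values come from a single population. Each set here mixes 3 dose groups and the sets share libraries, so that rate is only a rough guide. AngII vehicle number 2 had 4.25 CPM of Angptl4, against 1.28 to 1.67 in the other 5 AngII libraries. Sham vehicle number 7 had 20.1 CPM of Slc27a1, against 5.05 to 10.5 in the other sham libraries. AngII 5 mg number 4 had 29.8 CPM of Eci1, against 21.7 to 24.3 in the other AngII libraries. No interaction of AngII and gastrodin passed the test in any of the 33 genes.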

How the results depend on the processing

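With 2 libraries per group, the precision of every single-dose result is low, and genes near 1 CPM (Acot1, Angptl4, Ucp3 at 50 mg in sham) rest on few counts. No paired analysis was possible because the library numbers run from 1 to 12 and no number occurs in more than 1 group.

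Counts of the 33 genes called, against the reported value, changed by more than 1.5 times as follows, and the cause was not tested. For AngII against sham averaged (5), the count was 1 with the nuclear share as covariate, 12 without AngII number 4 and sham number 12 together, and 3 to 11 with 1 library left out. In vehicle (0) it was 2 by DESeq2's Wald test and 1 with no filter. At 5 mg (0) it was 1 by DESeq2, 2 with no filter, 3 without numbers 4 and 12, and 0 to 5 with 1 library left out. At 50 mg (5) it was 9 by DESeq2, 0 on log2(TPM + 1), 2 on log2(TPM + 0.1), 3 with the covariate, 2 without numbers 4 and 12, and 0 to 7 with 1 library left out. For gastrodin in AngII hearts (0) it was 2 at 5 mg and 1 at 50 mg with no filter, and for 5 mg in sham hearts (0) it was 1 with no filter. For 50 mg in sham hearts (1) it was 9 by DESeq2, 5 with no filter, 0 on either TPM scale, 4 with the covariate, 2 with the GC trend removed, 0 without numbers 4 and 12, and 0 to 3 with 1 library left out. For the interaction at 50 mg (0) it was 3 with no filter. The other 216 counts stayed within 1.5 times. Calls over all genes (higher and lower) moved in the same direction in the settings that follow. For AngII against sham at 50 mg they were 675 and 231 by edgeR and 1452 and 784 by DESeq2 (16723 genes tested). They were 6 and 11 on log2(TPM + 1), 105 and 19 on log2(TPM + 0.1) (13274 genes), and 341 and 104 with the covariate. For gastrodin 50 mg in sham hearts they were 14 and 11 by edgeR, 127 and 135 by DESeq2, and 28 and 36 with the covariate.

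On either TPM scale the averaged change turned from negative to positive in 17 of the 33 genes, all the negative ones but Etfa. The median over all genes was also higher there, at 0.25 on log2(TPM + 1) and 0.54 on log2(TPM + 0.1), against 0.10 by CPM. With the GC trend removed 5 turned (Plin5, Crat, Mlycd, Acaa2 and Acot13), with the covariate 5 (Angptl4, Hadha, Hadhb, Acot1 and Acot13), and with 1 library left out at most 4. Among the 12 genes given in full for that contrast, those that turned were Etfdh (0.0007 on log2(TPM + 1) and 0.0029 on log2(TPM + 0.1)), Echs1 (0.0955 and 0.1018), Decr1 (0.1332 and 0.1508), and Mlycd (-0.0847 with the GC trend removed). Of the single-gene values, 738 kept their direction and side of the threshold, 61 lost a call, 39 gained one and 7 changed direction. Library sizes from nuclear counts without TMM, a setting chosen after seeing the data, called 4 of the 33 in the averaged contrast, without Ucp3. A fit that leaves a group with 1 library assumes that it varies like the others.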
